A study of Mus musculus with 1 sample.

Results

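The 50 genes described here encode proteins of the mitotic spindle, the kinetochore and cell division. They were taken by name from a fixed list. All 50 were found among the 32285 genes of the matrix, each as 1 gene identifier. The library came from mouse gastric organoids, cultures of stomach epithelium that grow in a gel and keep dividing. Genotype is wild type and treatment is none. On day 7 the organoids were made into single cells with trypsin-EDTA (0.05%, 30 min, 37 °C), and a 10x Genomics 3′ library was sequenced. Organoids of other genotypes, which the series' design names beside these, were not analysed here. A barcode was kept if it had 500 or more detected genes and no more than 20% of its unique molecular identifiers (UMIs) from mitochondrial genes, which left 1892 of 1991. These held 20118334 gene UMIs, with a median of 8512.5 UMIs per cell and a range of 890 to 47183. There was 1 library and no replicate, so no difference was tested and every interval is a 95% interval for counting error only.

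When a cell divides, its chromosomes condense, attach through kinetochores to spindle microtubules, and are pulled apart before the cell is cleaved by cytokinesis. Cyclin-dependent kinase 1 with cyclin B drives entry into mitosis, Aurora and Polo kinases build the spindle, and the spindle checkpoint holds anaphase back until every chromosome is attached. The anaphase-promoting complex then marks cyclin B and securin for destruction. Many of these genes are transcribed mainly in G2 and mitosis, under a complex of MuvB, B-Myb and FoxM1 proteins that binds promoters through an element called CHR, while the DREAM complex keeps them low in resting cells. In the stomach, dividing cells lie in the isthmus of the gland, and organoids keep dividing cells in culture.

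The labelled cell type was checked against its markers. Krt18, a keratin of simple epithelium, had a UMI in 99.6% of cells, and Epcam, an epithelial adhesion protein, in 96.6%. Of 11 fibroblast, immune and endothelial markers, 4 had no UMI, and the highest was Csf1r, with a UMI in 13 cells (0.687%). Of the pit cell markers, Tff1 had a UMI in 54.7% of cells, Gkn1 in 23.0%, Gkn2 in 16.8% and Muc5ac in 2.38%. Of the mucous neck cell markers, Tff2 had one in 7.08%, Cftr in 1.80% and Muc6 in 1 cell. The chief cell markers Cblif and Pga5 had no UMI but Pgc had one in 1.64% of cells. The parietal cell markers Atp4b and Slc26a7 had none but Atp4a had one in 1.43%, and the tuft cell marker Trpm5 had none but Dclk1 had one in 1.53% and Pou2f3 in 3 cells. Of 4 endocrine markers, Chga and Sst had no UMI, Ghrl had one in 3 cells and Gast in 1. A cluster of 62 cells stood apart from the rest. It was led by Cyba, Reg3g, Gm3776, Gsta2 and Gsta1, of which the last 3 are similar in sequence, and 51.6% of its cells (38.6% to 64.5%) had a UMI of a Y-linked gene, against at most 1.48% in any of the other 5 clusters. It is called cluster 6, and values without it are given beside the results it moves most. Orders of genes whose intervals overlap can change without it, and no order among such genes is meant. The matrix also counts multiplexing tags. CMO301 was the highest tag in 1062 kept cells and CMO302 in 830, and the labels do not say what each marks.

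Promoter sequences were taken from RefSeq (GRCm38.p6), which gave a window of 250 bases before to 50 bases after the start for 41 of the 50 genes. They are shown because the genes rise in the same cells, and the windows share short sequences. The windows were searched on both strands for CCAAT, the box bound by the factor NF-Y, and for TTTGAA and TTTAAA, the most common forms of the CHR element. TTTAAA reads the same on both strands. In the lines below, bases from 120 before to 30 after the start are printed 5′ to 3′ on the strand of the gene, with matches in capitals. A match on the opposite strand reads ATTGG or TTCAAA. For Bub3 the more upstream of its 2 starts was used. The 6 genes were chosen after their values were seen, as genes of high, middle and low concentration in few cells.
Cenpf (chr1:189688057-189688206, minus strand): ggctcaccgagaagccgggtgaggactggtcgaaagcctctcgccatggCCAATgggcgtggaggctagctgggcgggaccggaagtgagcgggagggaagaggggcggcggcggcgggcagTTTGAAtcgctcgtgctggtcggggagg
Hmmr (chr11:40733408-40733557, minus strand): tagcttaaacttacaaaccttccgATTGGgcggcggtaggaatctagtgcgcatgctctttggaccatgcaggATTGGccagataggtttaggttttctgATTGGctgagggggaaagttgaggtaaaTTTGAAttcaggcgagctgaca
Ccnb2 (chr9:70421525-70421674, minus strand): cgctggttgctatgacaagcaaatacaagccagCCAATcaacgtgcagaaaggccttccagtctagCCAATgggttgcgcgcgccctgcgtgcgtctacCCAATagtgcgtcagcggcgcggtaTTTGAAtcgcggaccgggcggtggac
Cdc20 (chr4:118437314-118437463, minus strand): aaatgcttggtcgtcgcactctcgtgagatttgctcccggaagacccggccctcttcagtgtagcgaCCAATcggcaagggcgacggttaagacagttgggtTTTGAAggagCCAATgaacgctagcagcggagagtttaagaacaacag
Ube2c (chr2:164769809-164769958, plus strand): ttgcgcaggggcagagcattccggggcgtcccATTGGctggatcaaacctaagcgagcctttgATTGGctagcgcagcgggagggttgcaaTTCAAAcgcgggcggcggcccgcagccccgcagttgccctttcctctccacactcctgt
Bub3 (chr7:131560250-131560399, plus strand): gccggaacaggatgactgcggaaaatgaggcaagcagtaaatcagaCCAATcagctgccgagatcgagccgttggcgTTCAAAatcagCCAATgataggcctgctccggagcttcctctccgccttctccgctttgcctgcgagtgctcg
The printed windows of Hmmr and Ccnb2 hold 3 CCAAT boxes each and that of Cenpf holds 1, and all 6 hold 1 TTTGAA. Bub3, whose values differ most from those of the group below, holds both motifs too.

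Over the whole window, TTTGAA was found in 34 of the 41 genes (82.9%) and in 20.2% of all 27025 genes of the promoter table. CCAAT was found in 32 of the 41 (78.0%) and in 41.1% of all genes. Both together were found in 29 of the 41 (70.7%) and in 7.97% of all genes. TTTAAA was found in 10 of the 41 (24.4%) and in 14.9% of all genes. A pair of CCAAT boxes on the same strand whose starts lie 31 to 33 bases apart, a spacing chosen after the positions were seen, was in 7 of the 41 (17.1%) and in 0.918% of all genes. With only the 150 bases before the start, TTTGAA was in 36.6% of the 41 genes, against 10.5% of all genes, because the other matches lie after the start or farther upstream, as in the printed windows of Cenpf, Hmmr and Ccnb2. The windows of Nusap1, Nuf2 and Mad2l1 hold none of the 3 motifs, which says only that these letters are not in these windows.

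The 50 genes were found in most cells, but as a few UMIs per cell. At least 1 UMI of at least 1 of them was in 1644 cells, or 86.9% (85.3% to 88.4%). Summed, they had 16168 UMIs, or 804 per 1000000 gene UMIs (CPM; 791 to 816), which is 0.0804% of all gene UMIs. The median cell held 2 UMIs from 2 of the genes, the cell at the 90th percentile 15 UMIs from 11 genes, and the highest cells 222 UMIs or 45 genes. Deeper cells show more genes, so each cell was also thinned at random to 3000 UMIs, which kept 1835 cells and left out 57 shallower ones. At that depth 742 cells (40.4%, 38.2% to 42.7%) had no UMI of any of the 50 genes, and 612 had exactly 1 of the genes. At least 5 genes were found in 166 cells (9.05%, 7.77% to 10.5%) and at least 10 in 87 cells (4.74%, 3.81% to 5.82%). There was no gap in the tail below 20 genes, with 14 cells at 8 genes, 16 at 10, 7 at 15 and 4 at 19, and 2 cells reached 28.

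**Figure D1:**
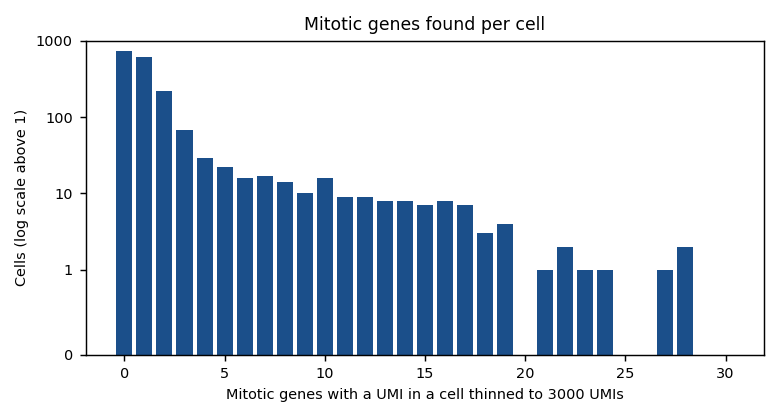
Number of the 50 mitotic genes with a UMI in each of 1835 cells thinned to 3000 UMIs (horizontal axis) against the number of cells (vertical axis, log scale above 1). Most cells hold 0 or 1 gene, 742 and 612 cells, and a long tail of 87 cells holds 10 or more.

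Single genes were found in 2.22% to 34.5% of cells, with a median share of 6.84%. Of the 50, 15 were in at least 10% of cells, 5 in at least 20% and 2 in at least 30%. The order began with Bub3, a checkpoint protein that also binds chromatin and splicing factors in interphase, at 34.5% (32.3% to 36.7%). Ube2c, the ubiquitin-conjugating enzyme of the anaphase-promoting complex, followed at 30.7% (28.6% to 32.8%). Their intervals overlapped. Next came Smc4, the condensin subunit, at 24.0% (22.1% to 26.0%), Cenpa, the histone H3 variant of centromeres, at 23.9% (22.0% to 25.9%), and Top2a, the topoisomerase that untangles sister chromatids, at 22.8% (21.0% to 24.8%). Those 3 did not differ beyond their intervals. They were followed by the microtubule bundling protein Prc1 at 17.2% (15.6% to 19.0%) and the kinase gene Cdk1 at 15.5% (13.9% to 17.3%). The proliferation marker Mki67 was 11th, at 12.1% (10.7% to 13.7%), and 8 genes from Cdca8 to Kif23 lay between 13.2% and 10.1%, so neighbours in that stretch could not be ordered. The narrowest were Nuf2, a subunit of the NDC80 microtubule-binding complex, and Cdc25c, the phosphatase that activates Cdk1, both at 2.22% (1.60% to 2.99%).

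**Figure D2:**
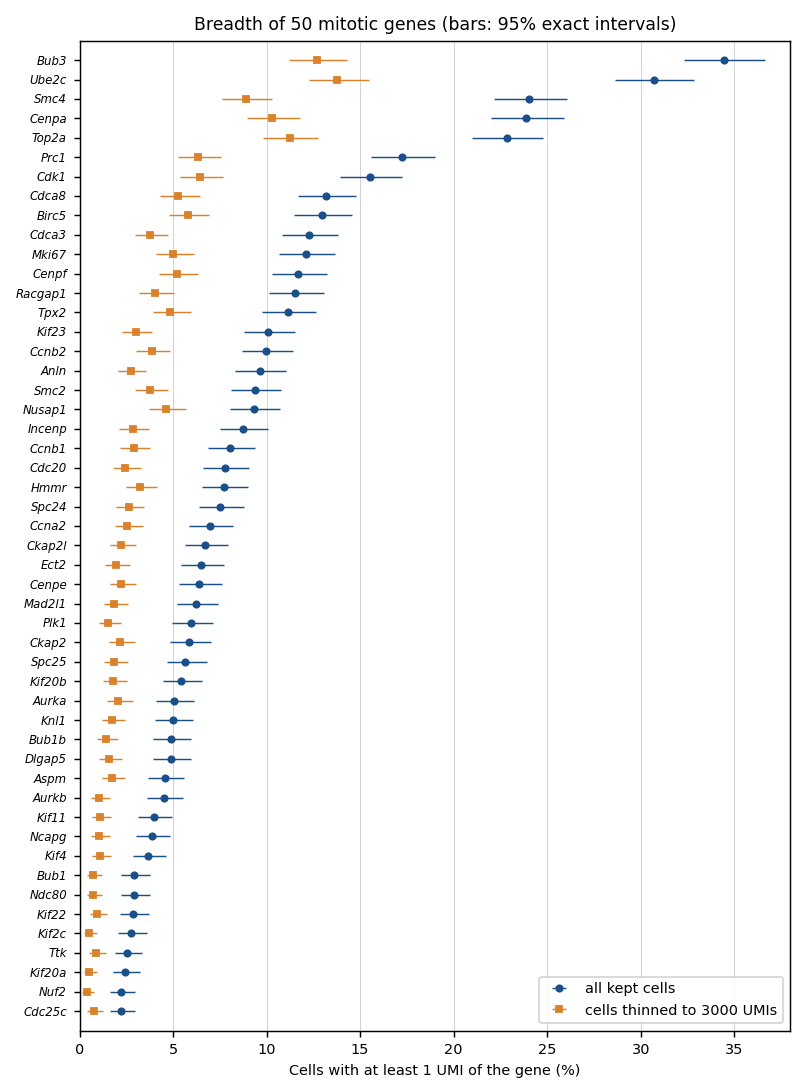
Share of cells with at least 1 UMI (horizontal axis, %) for each of the 50 genes (vertical axis, by share), in all 1892 kept cells (circles) and in 1835 cells thinned to 3000 UMIs (squares), with 95% exact intervals. Bub3 and Ube2c lead at both depths, and at 3000 UMIs the median gene is at 2.34%.

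Thinning lowered every share and left the order nearly as it was (Spearman's rank correlation of 0.98 over the 50 genes, as a description). At 3000 UMIs Ube2c led with 13.8% (12.2% to 15.5%), before Bub3 with 12.7% (11.2% to 14.3%), Top2a with 11.2% and Cenpa with 10.3%, and the lowest was Nuf2 at 0.381%. No cell type that lacks these genes was identified to compare with. Each gene's share was therefore also taken in cells without a UMI of the other 49 genes, at the same 3000 UMIs. The cells without any of the 50 had a median of 8258 UMIs before thinning, against 8718 in all thinned cells. The median gene fell to 0.669% there, and 5 genes (Ckap2l, Aurkb, Ttk, Kif11 and Kif22) had no UMI in 742 such cells. Bub3 was at 11.9% there (100 of 842 cells), within the interval of its share in all thinned cells. Ube2c was at 9.18% (75 of 817), Smc4 at 6.67% (53 of 795), Top2a at 5.60% (44 of 786) and Cenpa at 5.36% (42 of 784). Whether those UMIs came from the cells or from free RNA in the droplets was not tested.

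The UMIs of the genes were concentrated in few cells. Cells with at least 3000 UMIs were ranked by the percent of their UMIs that the 50 genes hold, and the top 5%, 92 cells, were set against the other 1743. They are called the mitotic-rich cells. For each gene its own UMIs were left out of the ranking. The 50 genes held 0.377% to 1.76% of UMIs (median 0.626%) in a mitotic-rich cell and 0% to 0.371% (median 0.0253%) in the others. The class is a range and not a cell type: 19 cells inside it lay under 1.2 times the limit, and 24 outside it lay over 0.8 times the limit. The mitotic-rich cells held 5.92% of all gene UMIs and 47.5% (46.7% to 48.3%) of the UMIs of the 50 genes. After thinning, the median mitotic-rich cell showed 13 of the 50 genes (range 6 to 28) and the median other cell 1 (range 0 to 11). The mitotic-rich cells had a median of 10963 UMIs and 3.15% mitochondrial UMIs, against 8582 and 4.09% in the others. None of them was among the 12 doublets called in the library. CMO301 was the highest tag in 64.1% of them and in 55.4% of the others. The part of depth and of the tags in the difference was not tested.

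Every one of the 50 genes was at least 2 times higher in the mitotic-rich cells, and of the 8635 genes with at least 100 UMIs 6.07% were. All 50 intervals lay above 1, as did 21.0% of those of the 8635 genes. The ratio was at least 5 for 49 genes and at least 10 for 44, with a median of 17.2 and a range of 3.04 to 34.8. The median over all genes tested was 1.10. Of the 50, 39 had at least 100 UMIs themselves. The ranking comes from the other 49 genes of the same group, so the counts describe how the group moves together. Without cluster 6 all 50 were again at least 2 times higher, with a median of 19.3, and the highest ratios were then those of Hmmr at 40.8 (30.3 to 55.5), Dlgap5 at 36.3 (23.6 to 56.9) and Aurka at 35.2 (23.7 to 53.2).

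The 9 spindle assembly genes had the highest median share of UMIs in the mitotic-rich cells of the 10 roles, 62.9%. The genes of this role had 60.0% (Plk1) to 68.6% (Aurka) of their UMIs in the mitotic-rich cells, and the median over all 50 genes was 52.3%. Kif20b, Kif22, Cenpf and Cdc25c, of other roles, lay in that range too. Without cluster 6 the role kept the highest median ratio, 32.6, but its lowest gene, Plk1, was at 20.1 (13.6 to 29.6), and 15 of the 41 genes of other roles were above it. Aurka, the kinase of spindle poles (ENSMUSG00000027496, GRCm38 chromosome 2, 172356190 to 172370535, minus strand), was at 88.7 CPM there and 2.55 CPM elsewhere, a ratio of 34.8 (24.5 to 49.99). Hmmr, a spindle protein that also binds hyaluronan, was at 168 CPM and 4.99 CPM, a ratio of 33.6 (26.2 to 43.5). Nusap1, which bundles microtubules near chromosomes, was at 247 CPM and 8.34 CPM, a ratio of 29.6 (24.3 to 36.2). Tpx2, which activates Aurora A, was at 238 CPM and 9.95 CPM. Plk1, the Polo-like kinase, was at 78.5 CPM and 3.29 CPM, and Aspm, a protein of spindle poles, at 65.0 CPM and 2.60 CPM. Aurka, in 5.02% of all cells, had UMIs in 58.7% of the mitotic-rich cells. The narrowest of the 50 genes were in fewer of them, from 17.4% for Nuf2 and 19.6% for Ttk to 23.9% for Kif20a and 27.2% for Cdc25c.

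Kinetochore genes had ratios from 9.47 to 30.6. Cenpf, a large protein of the outer kinetochore (ENSMUSG00000026605, chromosome 1, 189640606 to 189688086, minus strand), was at 366 CPM in the mitotic-rich cells and 11.96 CPM elsewhere, a ratio of 30.6 (26.0 to 36.1). It was found in 89.1% of mitotic-rich cells and 7.80% of others. Cenpa had a ratio of 9.47 (8.32 to 10.8), with 324 CPM and 34.3 CPM, and Cenpe, a kinesin of the kinetochore, had 16.9 (12.6 to 22.5). Knl1, the scaffold for the Bub checkpoint proteins, was at 65.0 CPM and 3.03 CPM. The 4 subunits of the NDC80 complex were counted unequally. Spc24 had 214 UMIs in the library and Spc25 180, but Ndc80 had 63 and Nuf2 44. The library tags transcripts near their 3′ ends, so these are tag counts and are not set per length. All 4 were higher in the mitotic-rich cells, with ratios of 13.3 for Spc24 (10.1 to 17.6), 21.7 for Spc25 (16.0 to 29.6), 11.2 for Ndc80 (6.49 to 18.9) and 10.4 for Nuf2 (5.29 to 19.9).

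Checkpoint genes had ratios from 3.04 to 18.2. Bub3 (ENSMUSG00000066979, chromosome 7, 131560222 to 131571895, plus strand) was the lowest of the 50, at 128 CPM in the mitotic-rich cells and 41.9 CPM elsewhere, a ratio of 3.04 (2.54 to 3.62). Only 16.1% of its UMIs lay in the mitotic-rich cells. Its partners Bub1 and Bub1b, which it helps bring to kinetochores, had ratios of 15.9 (9.73 to 26.0) and 18.2 (12.5 to 26.6), and without cluster 6 of 22.9 (13.2 to 40.3) and 21.9 (14.5 to 33.3). Mad2l1, the checkpoint protein that blocks Cdc20, had 8.72 (6.07 to 12.4), and Ttk, the kinase that starts the checkpoint signal, 10.2 (5.74 to 17.6).

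The cyclins and their kinase drive entry into mitosis, and the 5 genes of this role had a median of 53.8% of their UMIs in the mitotic-rich cells. Cdk1 was at 196 CPM in mitotic-rich cells and 15.6 CPM elsewhere, a ratio of 12.5 (10.5 to 14.9). The B cyclins had higher ratios, 19.2 for Ccnb1 (14.8 to 24.8) and 18.5 for Ccnb2 (14.9 to 23.1). Ccna2, cyclin A2, which acts from S phase into early mitosis, had 13.0 (9.62 to 17.6). Cdc25c, with 48 UMIs in all, had 24.3 (13.1 to 45.8). Mki67 was at 249 CPM and 13.3 CPM, a ratio of 18.7 (15.8 to 22.3), and Top2a at 597 CPM and 34.8 CPM, a ratio of 17.2 (15.4 to 19.1).

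In the chromosomal passenger complex, which corrects faulty attachments, the subunits differed. Birc5, also known as survivin, had a ratio of 20.1 (16.8 to 24.1) and the kinase gene Aurkb 20.4 (13.8 to 30.3). Cdca8, which encodes borealin, had 13.6 (11.2 to 16.4). Incenp, the scaffold, had 9.46 (7.01 to 12.7), and its interval did not overlap that of Birc5 or Aurkb. Of the 7 kinesins, Kif20b was highest at 27.1 (19.1 to 38.8) and Kif23, a motor of the midzone, lowest at 8.57 (6.55 to 11.2). Kif11, the motor that pushes spindle poles apart, had 22.5 (14.4 to 35.5). Among cytokinesis genes, Prc1 had 17.2 (14.7 to 20.1), Ect2, an exchange factor needed for cleavage, 17.2 (12.7 to 23.4), Racgap1, its partner, 12.5 (9.97 to 15.8), and Anln, a scaffold of the contractile ring, 11.8 (9.15 to 15.1). Cdc20, which activates the anaphase-promoting complex, had 16.4 (12.7 to 21.3), and Ube2c 10.6 (9.57 to 11.7), from 560 CPM and 52.9 CPM. In condensin, which compacts chromosomes, Smc2 had 14.1 (11.2 to 17.7) and its dimer partner Smc4 6.26 (5.28 to 7.39), with no overlap of the intervals.

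**Figure D3:**
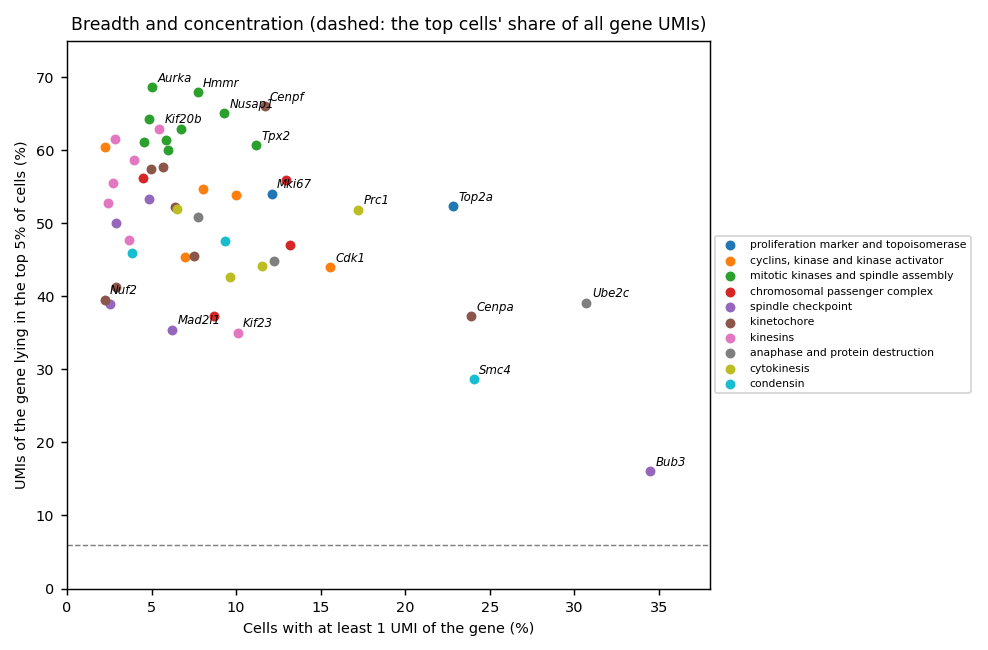
Share of cells with a UMI (horizontal axis, %) against the share of a gene's UMIs in the 5% of cells richest in the other 49 genes (vertical axis, %), with 1 point per gene, coloured by role. The dashed line is the 5.92% of all gene UMIs in those cells; Bub3 at 16.1% is nearest to it and Aurka at 68.6% is farthest.

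Breadth and concentration ordered the genes differently. Across the 50 genes, Spearman's rank correlation between the share of cells and the share of UMIs in the mitotic-rich cells was -0.30, as a description. Of the 5 genes in at least 20% of cells, Top2a had 52.4% of its UMIs in the mitotic-rich cells, close to the median, and Ube2c, Cenpa, Smc4 and Bub3 ranked 43rd, 46th, 49th and 50th of the 50. Narrow genes lay far apart too, with 68.6% for Aurka, 39.5% for Nuf2 and 39.0% for Ttk. Ube2c reached 35 UMIs in 1 cell, Top2a 33 and Tpx2 25, whereas Bub3 did not pass 8.

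Other genes of mitosis and of the cycle were read in the same 92 cells against the rest. The minimum of 100 UMIs includes the UMIs of those 92 cells, so a gene can pass it through the cells where it is high. Of 57 further mitotic genes, 25 had at least 100 UMIs, and 23 of these were at least 2 times higher, with a median ratio of 6.18. The highest were Tacc3, a spindle protein, at 18.4 (14.3 to 23.7), the kinase gene Pbk at 17.96 (13.1 to 24.7) and Sgo1, the protector of centromeric cohesion, at 16.7 (12.1 to 23.1). The remaining 2 were Pttg1, which encodes securin, at 1.18 (0.919 to 1.49) and Zwint, a kinetochore gene, at 1.07 (0.774 to 1.44), and Bora was at 2.25 (1.15 to 4.03). Pbk, Sgo1 and Bora were among the genes that passed the minimum only through the mitotic-rich cells. The count of 23 and the highest ratios therefore depend in part on the minimum. Without cluster 6, 22 of 24 were past 2, Pbk was at 21.7 (14.8 to 32.1), Tacc3 at 19.9 (15.1 to 26.3) and Sgo1 at 19.8 (13.8 to 28.4), Zwint was at 0.841 (0.578 to 1.19), and Bora fell under 100 UMIs. Of 53 DNA replication genes, 35 had at least 100 UMIs and 31 were at least 2 times higher, with a median of 4.23. Clspn, which relays replication stress signals, led at 15.6 (10.9 to 22.4), and Ung, a DNA repair gene, at 0.896 (0.440 to 1.64), was lowest. Clspn, with 129 UMIs, was among the replication genes that reached 100 only through the mitotic-rich cells, so its lead and the count of 31 depend in part on the minimum. Without cluster 6, 27 of 30 were past 2, Ung was at 1.23 (0.644 to 2.17), and Clspn fell under 100 UMIs. The 15 core genes of the anaphase-promoting complex had a median of 1.44, and 2 were past 2, Anapc4 at 2.35 (1.52 to 3.51) and Anapc15 at 2.33 (1.69 to 3.15). Without cluster 6 Anapc4 was at 1.69 (0.997 to 2.72) and 1 of the 15 was past 2. The 9 cohesin genes had a median of 1.48, and 2 were past 2, Rad21 at 2.93 (2.44 to 3.49) and Smc1a at 2.06 (1.77 to 2.38). Without cluster 6 Smc1a was at 1.98 (1.69 to 2.31) and 1 of the 9 was past 2. Of 13 genes of MuvB, B-Myb, FoxM1 and the pocket proteins, 8 had at least 100 UMIs, with a median of 1.35. The genes of B-Myb and FoxM1 were not among the 8, so no ratio is given for them. Past 2 were Lin54 at 4.67 (2.87 to 7.37) and Tfdp1 at 2.33 (1.67 to 3.18). Lin54, with 110 UMIs, reached 100 only through the mitotic-rich cells. Without cluster 6 the same 2 were past 2, Lin54 at 3.94 (2.29 to 6.48) and Tfdp1 at 2.12 (1.46 to 2.99).

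Markers of other cells and states were read beside these ratios. The 10 dissociation stress genes, none of them past 2, summed to 5403 CPM in the mitotic-rich cells and 6830 CPM in the others, a ratio of 0.791 (0.771 to 0.811). It became 0.916 (0.894 to 0.938) when cluster 6 was left out and the top 5% of cells, 89 cells, were taken again. All 4 pit cell markers, Gkn1, Gkn2, Tff1 and Muc5ac, were at least 2 times higher, and their sum was at 1502 CPM against 354 CPM, a ratio of 4.25 (4.03 to 4.48). Without cluster 6 the sum was lower in the mitotic-rich cells, at 115 CPM against 172 CPM, a ratio of 0.665 (0.553 to 0.795), so the direction of the pit markers rested on that cluster. The Y-linked genes summed to 19.4 CPM against 3.45 CPM, and without cluster 6 they had no UMI in the mitotic-rich cells. The replication genes kept a median of 4.03 and the further mitotic genes of 6.73 without cluster 6.

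Across cells, the 50 genes rose together. Pearson's r of ln(UMIs per 10000 + 1) over 1835 cells had a median of 0.31 over the 1225 pairs, from 0.02 to 0.67, and no pair was below 0. The cells share 1 library and their depth, and r falls as counts become sparse, so r is given as a description with no p. After thinning to 3000 UMIs the median r was 0.13. Spearman's rank correlation between the UMIs of a gene and its median r was 0.60 over the 50 genes. Cenpf had the highest median r, 0.49, and was the nearest partner of 30 of the genes. The highest pairs were Top2a with Cenpf at 0.67, Hmmr with Cenpf at 0.65, Nusap1 with Cenpf at 0.65, Tpx2 with Cenpf at 0.65 and Prc1 with Cenpf at 0.64. Within the 92 mitotic-rich cells, which were chosen by the sum of these genes, the median r was 0.09 and 298 of the 1225 pairs (24.3%) were below 0. There r ran from -0.35 for Kif22 with Prc1 and -0.31 for Aspm with Spc24 to 0.47 for Top2a with Prc1. These are the extremes of 1225 pairs over 92 cells, and Kif22 had a UMI in 33.7% of such cells. They are not read as genes that oppose each other. In thinned cells, 62 of the 96 cells with a Cenpf UMI (64.6%) also had one of Top2a, which was found in 206 of 1835. The count of cells with both Hmmr and Cenpf, 28, was 9.07 times the number that the product of the separate shares gives.

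Pairs within a role were close for spindle assembly, with a median r of 0.47 over 36 pairs, against 0.36 with genes of other roles. Within the checkpoint genes the median was 0.11 over 10 pairs, against 0.22 with other roles. Bub3 had a median r of 0.16 although it had 944 UMIs, the fourth most of the 50, and its r with Ttk was 0.04 and with Bub1 0.07. Ube2c, with the most UMIs at 1647, had a median r of 0.35. Nuf2 and Ttk were at 0.16, with 44 and 59 UMIs. The members of the NDC80 complex were not nearest partners of each other in 3 of 4 cases, Nuf2 with Spc25 at 0.23 being the other.

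**Figure D4:**
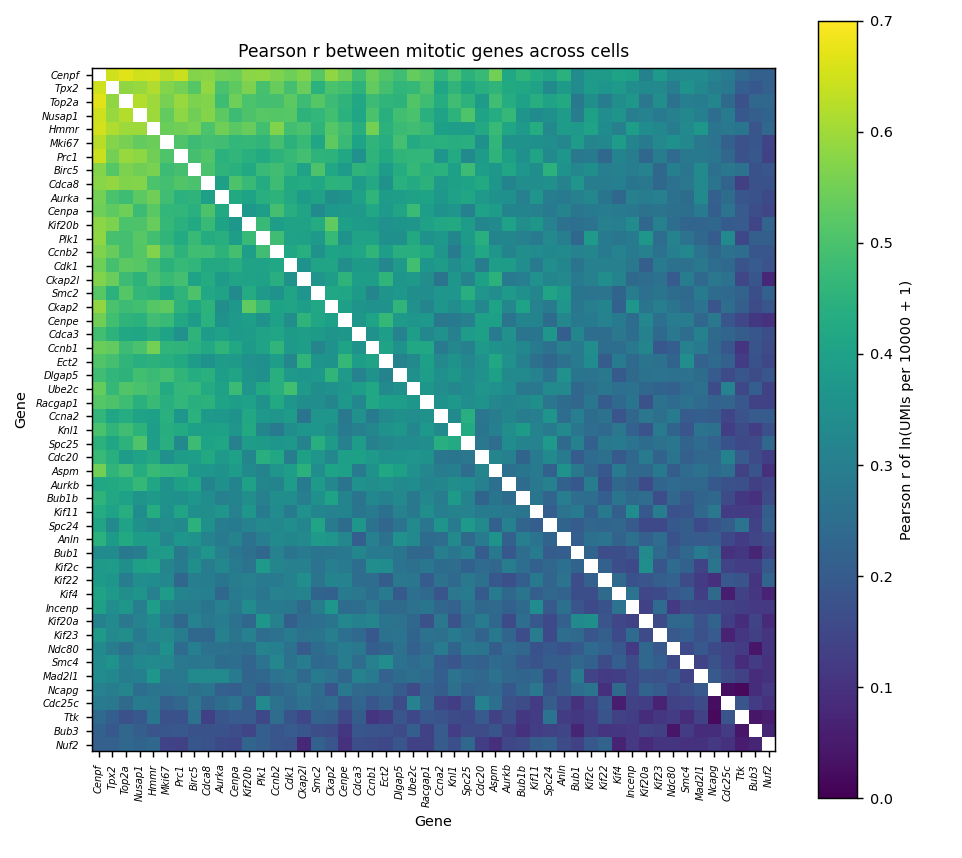
Pearson's r between the 50 genes over 1835 cells with at least 3000 UMIs, with genes on both axes ordered by median r and colour running from 0 to 0.7. Cenpf, Tpx2, Top2a, Nusap1 and Hmmr form the bright corner, and Nuf2, Bub3 and Ttk the dark edge.

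Outside the group, 8612 genes with a UMI in at least 5% of cells were ranked by r with the summed level of the 50. Their median r was 0.03, and 45 were above 0.3. The 10 highest were Tacc3 at 0.53, Pclaf, a factor bound to the replication clamp, at 0.53, the microtubule regulator Stmn1 at 0.51, the Cdk-binding proteins Cks1b at 0.50 and Cks2 at 0.48, Sgo1 at 0.46, the chromatin protein Hmgb2 at 0.45, the phosphatase gene Cdkn3 at 0.45, and the histone genes Hist1h2ap at 0.44 and Hist1h1b at 0.43. All but Pclaf were in the lists of cycle genes. The 5 lowest were Hist1h2bc at -0.33, Ly6d, a surface protein, at -0.32, Fth1, the ferritin heavy chain, at -0.24, and the noncoding 2410006H16Rik at -0.23 and 1110038B12Rik at -0.22. Hist1h2bc was at 160 CPM in the mitotic-rich cells and 466 CPM in the others, a ratio of 0.342 (0.295 to 0.395), opposite to Hist1h1b at 147 CPM and 8.50 CPM. Histone genes have near-identical copies, so some reads may not be assignable to 1 gene and these levels are uncertain. Genes at or below 0.5 times were 2.29% of the 8635 tested.

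DNA replication precedes mitosis, so the 53 replication genes were summed in the thinned cells and set beside the 50. The 2 sums had r of 0.52 over 1835 cells, and 0.48 without cluster 6. With the top 5% of cells taken for each sum, 49 cells were in both classes, 43 only in the mitotic one, 43 only in the replication one and 1700 in neither. Ties were broken by order, and 27 cells shared the last replication value of 6 UMIs. Cells only in the mitotic class had a median of 17 mitotic and 4 replication UMIs, cells in both 21 and 10, cells only in the replication class 6 and 8, and cells in neither 1 and 1. The replication-only cells were deepest before thinning, at a median of 12299 UMIs, against 11099 in mitotic-only and 9983 in both.

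**Figure D5:**
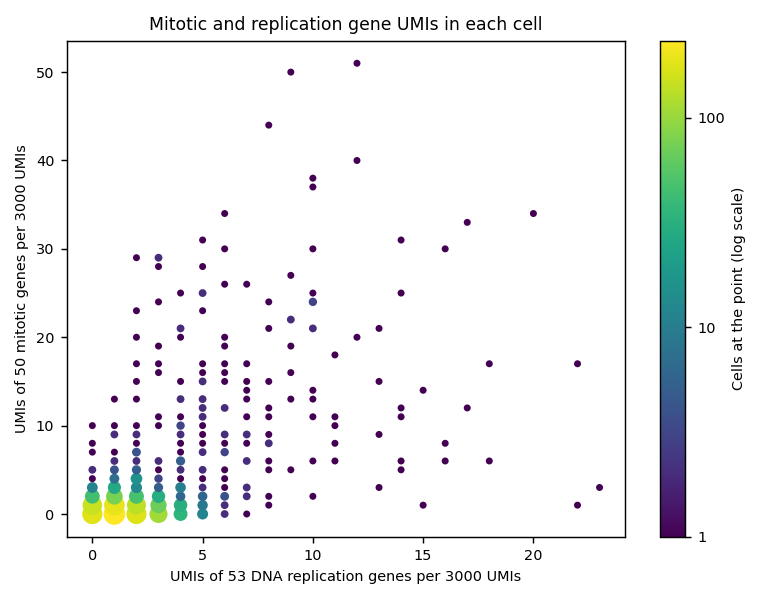
UMIs of the 53 replication genes (horizontal axis) and of the 50 mitotic genes (vertical axis) in each of 1835 cells thinned to 3000 UMIs, with colour and size for the number of cells at a point. Most cells lie near 0 on both axes, and cells with over 20 mitotic UMIs range from 2 to 20 replication UMIs.

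Within the mitotic class, 4 of the 50 genes had intervals under 1 for the 43 mitotic-only cells against the 49 cells high in both, and 1.86% of the 8635 genes did, many of which have few UMIs in these cells. The 50 genes together had 820 against 1121 UMIs, a ratio per cell of 0.834 (0.761 to 0.913), so ratios under 1 are the rule for the group. The intervals are not adjusted for the number of genes. Smc2 had 8 UMIs against 32, a ratio per cell of 0.285 (0.113 to 0.631), Spc25 5 against 19, a ratio of 0.2999 (0.0875 to 0.830), Ccna2 7 against 21, a ratio of 0.380 (0.136 to 0.928), and Top2a 70 against 116, a ratio of 0.688 (0.504 to 0.933). The intervals of the other 46 held 1. Ube2c had 77 against 89 UMIs, a ratio of 0.986 (0.717 to 1.35), and Cenpa 50 against 43, a ratio of 1.33 (0.864 to 2.04). The intervals of Ccna2 and Top2a also hold the ratio of the group.

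The genes were spread unevenly over clusters that had been made without them and without the listed cycle genes. Their sum reached 2873 CPM (2769 to 2979) in cluster 6. It was 1205 CPM (1176 to 1235) in cluster 3, whose 405 cells were led by the chemokine genes Cxcl2 and Cxcl5. Of the other clusters, number 4 was highest at 613 CPM and number 5 lowest at 374 CPM. Cluster 3 was also led by Diaph3 and Rad51ap1, and Diaph3 was open to use in the clustering. Cluster 6 held 5.01% of gene UMIs and 17.9% of the UMIs of the 50 genes, and cluster 3 held 26.6% and 39.9%. Of the 92 mitotic-rich cells, 44 lay in cluster 3, 19 in cluster 6, 12 in cluster 4, 8 in cluster 2, 7 in cluster 1 and 2 in cluster 5. Among cells with at least 3000 UMIs, mitotic-rich cells were 31.1% (19.9% to 44.3%) of the 61 in cluster 6 and 11.1% (8.19% to 14.6%) of the 396 in cluster 3, and at most 4.65% in the others. Median depth was 14365.5 UMIs in cluster 6, 11536 in cluster 3 and 12582 in cluster 4, and at most 7497 in clusters 1, 2 and 5, and its part in the order of the clusters was not tested. After thinning to equal depth, at least 10 of the genes were found in 32.8% (21.3% to 46.0%) of the cells of cluster 6. That share was 10.1% (7.31% to 13.5%) for cluster 3 and 4.26% (2.15% to 7.50%) for cluster 4.

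Each of the 50 genes was at its highest CPM in cluster 6, as were 34.0% of the 8653 genes with at least 100 UMIs, and 48 were at least 2 times higher there than in the other clusters together, where 8.93% of those genes were. Bub3 at 1.92 (1.52 to 2.40) and Cenpa at 1.98 (1.59 to 2.44) were the other 2. Against cluster 3 alone, 43 of the 50 intervals lay above 1, as did 19.2% of those of 5622 genes with at least 100 UMIs. The other 7 held 1, those of Bub1b, Knl1, Nuf2, Kif2c, Kif22, Anln and Ncapg. Of the 50, 32 had at least 100 UMIs in this comparison, and 31 of their intervals lay above 1. Against clusters 1, 2, 4 and 5 together, all 50 intervals for cluster 3 lay above 1, and 39.0% of those of 8463 genes did. The median ratio there was 2.87 over the 50 and 1.16 over those genes. In cluster 6, Ube2c was at 248 CPM, Top2a at 226 CPM, Cenpf at 145 CPM, Birc5 at 143 CPM and Mki67 at 129 CPM. In cluster 3 the same genes were at 97.3, 115, 61.4, 35.8 and 43.9 CPM. Leaving cluster 6 out lowered the summed level to 694 CPM and the median share of cells to 5.79%, and 13 of the 50 genes were then in at least 10% of cells.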

How the data were processed

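The values are UMI counts, 1 whole number per gene and barcode, that the authors deposited without normalization. Cell Ranger 6.1.2 made the matrix, per the file headers, and GRCm38/mm10 was the genome used for mapping, per the submitters' processing notes. The gene annotation was not given in the sources used here, so coordinates come from GENCODE M21 (GRCm38). The 12 multiplexing tags, 21.4% of all UMIs, were kept out of every total. Doublets were called with Scrublet in scanpy 1.11.5 (expected 1.59%, score above 0.134, 12 cells, 0.634%) and kept, as the gene group's rule keeps them. Clusters came from Leiden (leidenalg 0.10.2, resolution 0.6) on 2000 variable genes, 30 components and 15 neighbours. CPM carry exact Poisson intervals, shares exact Clopper-Pearson intervals, and ratios exact conditional binomial intervals. Thinning drew 3000 UMIs per cell without replacement. The ranking and ratio steps were tested on simulated data in which 92 cells were changed by fixed factors, whereas the real class is a range. There 3.95% of unchanged genes were at least 2 times higher or at or below 0.5 times. All 50 genes, the further genes with the 3 highest and 3 lowest ratios of a list, the 10 most and 5 least alike genes and the leading genes of clusters were open to naming. The members and lists were chosen with earlier results of these data known. UMIs near the 3′ end do not resolve alleles or isoforms, and no value was set per length.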

Additional observations from a re-analysis of the deposited data

Results flagged for a closer look

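Besides genes, the matrix counts multiplexing tags, which are no gene expression values. Tag CMO301 exceeded the other tags in 56.1% of kept cells and CMO302 did so in the remainder, although the labels describe 1 sample. The 50 mitotic genes summed to 879 CPM (862 to 896) in CMO301 cells and 710 CPM (692 to 727) in CMO302 cells. The labels tie no condition to a tag, so the difference was not read as one between conditions, and it was not tested.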

How the results depend on the processing

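Over 16 cell, depth, ranking, correlation and window settings, 85 values of the main results were recomputed. The yardstick was the counting interval of the reported value, or a factor of 1.5 for counts, median ratios and correlations: 64 lay inside it and 21 moved. A reversal was looked for only in the median correlation between the genes, which kept its sign. Thinning to 3000 UMIs gave 59.6% of cells with any of the genes, a median share of 2.34%, 4 genes in at least 10% of cells, 46.5% of UMIs in the top cells and a median r of 0.13. Asking for at least 2 UMIs of a gene gave 30.8%, 1.96% and 2 genes. Without a cell filter 85.2% of cells had any of the genes. The summed level was 722 CPM as a mean over cells, 694 CPM without cluster 6, 879 CPM in CMO301 cells and 710 CPM in CMO302 cells. The share of UMIs in the top cells was 44.9% in CMO301 cells, 48.8% in CMO302 cells, 22.3% for the top 2% of cells and 68.6% for the top 10%. In the 150 bases before the start, 36.6% of promoters held TTTGAA and 9.76% TTTAAA. The ratio of cluster 6 to the other clusters, 4.14 (3.97 to 4.31), was 3.54 in CMO301 and 5.17 in CMO302 cells, settings chosen after seeing the data, as were those for replication genes. The causes were not tested, except that thinning and a higher minimum must lower shares. Of single genes, 68 of 500 ratios and 119 of 450 shares moved. No ratio changed its side of 1, and shares have no direction to reverse. The rarest gene, Nuf2, had 44 UMIs and was in 7 thinned cells, so its values have wide intervals. No paired analysis was possible because the series as analysed holds 1 library.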
